A study of Bos taurus with 8 samples.

Results

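Blastocysts that formed from oocytes matured with a low dose of insulin were compared with control blastocysts on 4 of the 8 2-colour arrays of the series. These are the 4 arrays that the labels title as INS0.1 replicates 1 to 4, and the description runs across all measured genes. The INS0.1 embryos came from oocytes that had bovine insulin at 0.1 µg/ml in the maturation medium. The INS10 embryos, on the other 4 arrays, came from oocytes given 10 µg/ml. The control embryos came from oocytes matured with no insulin added, and control RNA was on every array. All groups were made in vitro from slaughterhouse ovaries by maturation, fertilization and culture, so insulin was given to the oocyte and its cumulus cells while RNA was read in the embryo days later. Each condition had 4 biological replicates per the design text, but how many embryos were pooled for 1 replicate is not given in the sources used here. On replicates 1 and 2 the insulin RNA carried Cy5 and the control RNA Cy3, and on replicates 3 and 4 the dyes were exchanged. Per the file names, the arrays of each dose were areas of 1 slide of their own, so dose and slide cannot be told apart between INS0.1 and INS10. Control samples may have served both doses, which the labels do not settle.

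A blastocyst consists of an outer trophectoderm, which forms the fetal part of the placenta, and an inner cell mass, which gives the embryo proper and the hypoblast. Insulin binds the insulin receptor and, less tightly, the IGF receptor, and signals through PI3K and AKT and through the RAF, MEK and ERK kinases. In cumulus cells and oocytes these pathways bear on glucose uptake, lipid synthesis and meiotic maturation. An array probe reads the RNA of a whole embryo pool, so fewer cells of a type and less RNA per cell cannot be told apart.

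On the 4 INS0.1 arrays the median raw spot intensity was 207 to 255 in Cy5 and 285 to 348 in Cy3, and 43.7% to 48.6% of probes were detected in Cy5 and 52.7% to 55.9% in Cy3. After the detection filter 29398 of 43794 bovine probes remained, and they covered 11742 named genes, each read through its brightest probe. Values are log2 ratios of INS0.1 over control, which are 0 where the groups are equal, and a limma adjusted p under 0.05 was taken as passing. An SE printed with a mean is limma's, from the fit of all 8 arrays with a dye effect. It is not the spread of the 4 ratios printed beside it. The trophectoderm keratin genes KRT8, KRT18 and KRT19 averaged 15.7, 15.5 and 15.7 log2 intensity units on the INS0.1 arrays and INS10 arrays together, against a median of 8.02 over all kept probes. The trophectoderm factor CDX2 was dim, at 7.79. It was above the detection limit in the INS0.1 channel on 3 INS0.1 arrays and in the control channel on 2. POU5F1 and NANOG, listed here as inner cell mass genes, were above that limit in both channels of all 4 INS0.1 arrays. INS0.1 replicate 1 stood apart from replicates 2 to 4 among the genes that rose, so the comparison of INS0.1 with control is given with it and without it.

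Over all 4 arrays, 17 named genes rose at INS0.1 (0.145% of genes tested) and 0 named genes fell, while 1037 named genes of either direction had an unadjusted p under 0.05. The rise was 1.81-fold to 2.49-fold. The genes were spread over several functions, with the nuclear lamina and cytoskeleton (LMNA, ARPC1B, TUBB3), lysosomes (CTSZ, LAMP1), lipid enzymes (DHCR7, FADS2) and RNA processing (ARL6IP4) among them. Counted by probe, 31 rose (0.105% of 29398 probes) and 1 fell (0.0034%). Replicate 1 was the lowest of the 4 arrays in 15 of the 17 genes. Its ratios for them ran from −0.21 to 0.79, while those of replicates 2 to 4 ran from 0.51 to 2.12.

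The largest rise was that of ARL6IP4, whose human protein regulates splicing. Its log2 ratio was 0.56 on replicate 1, 1.54 on replicate 2, 1.34 on replicate 3 and 1.83 on replicate 4, a mean of 1.32 (SE 0.19, adjusted p = 0.0134), or 2.49-fold. All 4 arrays were above 0 and replicate 1 was the lowest. LOC100125266, a locus to which no role is assigned here, had 0.43, 1.27, 1.89 and 1.62 on replicates 1 to 4, a mean of 1.30 (SE 0.19, adjusted p = 0.0134).

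LMNA encodes lamins A and C, which line the inner nuclear membrane. Its ratios were 0.11, 1.15, 2.12 and 1.30 on replicates 1 to 4, with a mean of 1.17 (SE 0.21, adjusted p = 0.0342), so replicate 1 lay near 0 and the other arrays above 1. The SD of these 4 ratios was 0.82. Read by channel on replicate 1, LMNA stood at 9.13 log2 intensity units in INS0.1 embryos and 9.02 in control embryos, and on replicate 3 at 11.5 in INS0.1 embryos and 9.40 in control embryos. ARPC1B, a subunit of the Arp2/3 complex that nucleates branched actin, had 0.50, 1.38, 1.13 and 1.07 (mean 1.02, SE 0.18, adjusted p = 0.0349). TUBB3, a beta tubulin, was the 1 gene of the 17 with a measured ratio below 0, −0.21 on replicate 1, against 0.87, 2.10 and 1.37 on replicates 2 to 4 (mean 1.03, SE 0.19, adjusted p = 0.0355). It also had a dye effect of −0.50 (limma adjusted p = 0.0359). An effect of that sign lowers the measured ratios on replicates 1 and 2 and raises those on replicates 3 and 4.

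In the lysosomal group, CTSZ, a cysteine protease that trims proteins from their carboxyl end, had 0.44, 0.58, 1.90 and 1.20 on replicates 1 to 4 (mean 1.03, adjusted p = 0.0378). LAMP1, an abundant glycoprotein of the lysosomal membrane, had 0.11, 1.07, 1.31 and 0.93 (mean 0.85, adjusted p = 0.0490). The 2 arrays with insulin in Cy5 were the lower ones for CTSZ, whereas for LAMP1 only replicate 1 was low. Another, dimmer LAMP1 probe gave a mean of 0.32 and did not pass (adjusted p = 0.754).

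The lipid enzymes were among the genes in which replicate 1 did not stand apart. DHCR7, which catalyses the last step of cholesterol synthesis, had 0.71 on replicate 1, 0.87 on replicate 2, 0.62 on replicate 3 and 1.76 on replicate 4 (mean 0.99, SE 0.19, adjusted p = 0.0467). FADS2, the desaturase that starts the synthesis of long polyunsaturated fatty acids, had 0.67, 0.51, 1.49 and 1.12 (mean 0.94, SE 0.17, adjusted p = 0.0349). In both genes replicate 1 was within the range of the other 3 arrays. HS1BP3 showed the smallest spread of the 17, with 0.79, 0.83, 1.06 and 0.84 on replicates 1 to 4 (mean 0.88 ± 0.12, SD, n = 4, adjusted p = 0.0342).

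GPAA1, a subunit of the complex that attaches GPI anchors to proteins, was also even, with 0.68, 0.99, 1.07 and 1.03 (mean 0.94 ± 0.18, SD, n = 4, adjusted p = 0.0355). HN1, now named JPT1, had 0.70, 1.27, 0.71 and 1.31 (mean 0.999, adjusted p = 0.0149), but 2 dimmer HN1 probes gave means of 0.01 and 0.74, and neither passed over 4 arrays. DTYMK, the thymidylate kinase of DNA precursor synthesis, had 0.25, 0.60, 1.5 and 1.35 (mean 0.92, adjusted p = 0.0332), and its 4 dimmer probes gave −0.06 to 0.54 with none passing. The remaining genes that rose were the tetraspanin TSPAN17 (mean 1.05), DNAJC5 (0.92), a co-chaperone of vesicle exocytosis, PRKRIP1 (0.92) and NOC2L (0.86), an inhibitor of histone acetylation in human cells. In these 4 genes replicate 1 lay at 0.14 to 0.30, and each of replicates 2 to 4 at 0.83 or above.

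**Figure D1:**
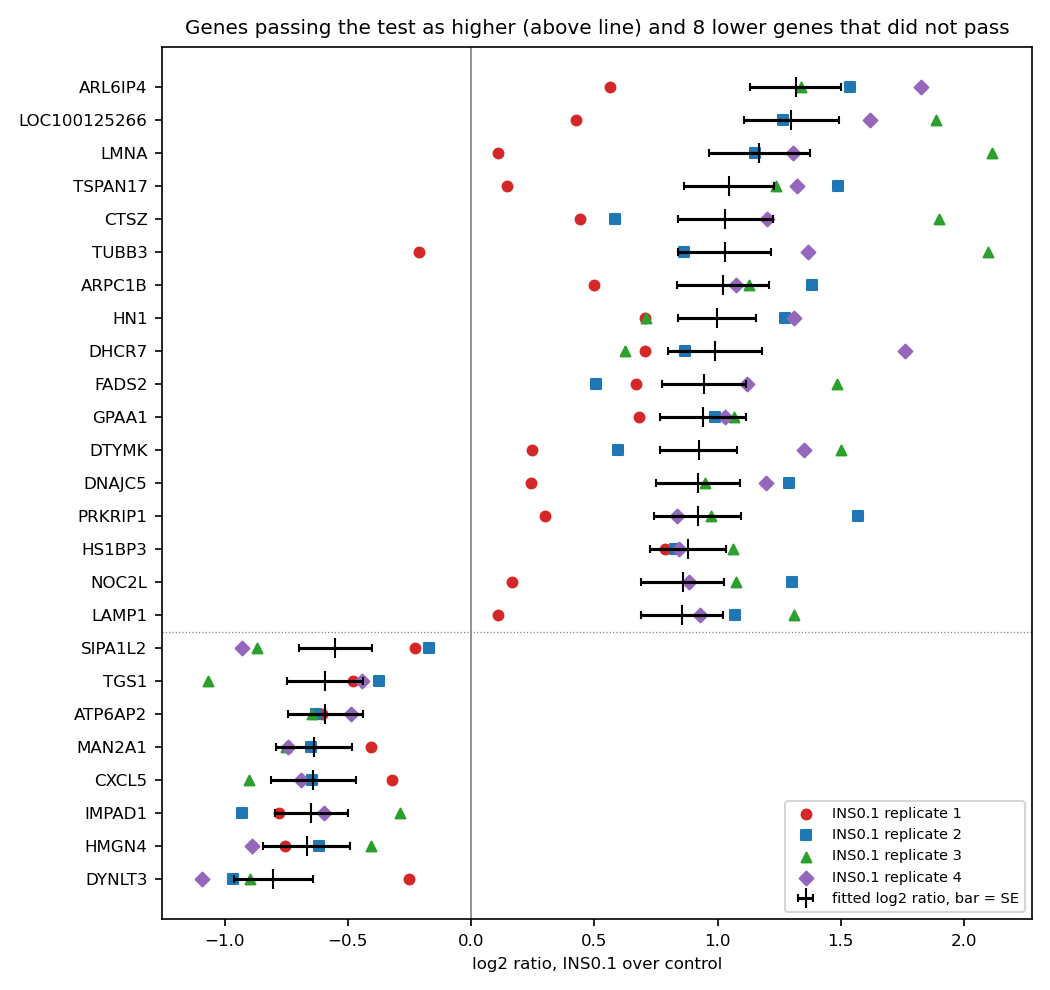
Log2 ratio of INS0.1 over control on each of the 4 INS0.1 arrays (coloured symbols) for the 17 genes that rose, above the dotted line, and for 8 genes with negative ratios on 4 of 4 arrays that did not pass the test, below it. The black tick is the fitted ratio with its SE. Ratios are as measured, with the dye effect not subtracted. Replicate 1 (red circles) is the lowest array in 15 of the 17 genes and lies below 0 in TUBB3 at −0.21.

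The calls over 4 arrays rested on replicates 2, 3 and 4 together. Without replicate 2, without replicate 3 or without replicate 4, none of the 17 genes passed the test, with limma adjusted p from 0.0862 to 0.404, while their log2 ratios stayed between 0.64 and 1.31 in those 3 fits. The number of probes called was 0, 0 and 1 in those 3 fits, with 2038, 1801 and 2007 probes at an unadjusted p under 0.05. The dye effect is estimated with the INS10 arrays, and without INS10 replicate 2 or INS10 replicate 3 only 4 of the 17 genes passed. With a dye effect for each slide 41 probes passed in place of 32, and with the replicate number as a random block added to it 64 passed. The 17 genes were all among the calls of the random block fit (adjusted p 0.00426 to 0.0378).

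Lower ratios were smaller, and no named gene passed. DYNLT3, a light chain of cytoplasmic dynein, came nearest with −0.25, −0.97, −0.90 and −1.09 on replicates 1 to 4 (mean −0.80, SE 0.16, adjusted p = 0.0504), but a dimmer DYNLT3 probe gave a mean of 0.07. The most even was ATP6AP2, which assists the vacuolar ATPase, with −0.61, −0.63, −0.64 and −0.49 (mean −0.59 ± 0.07, SD, n = 4, adjusted p = 0.151). MAN2A1, an enzyme of N-glycan processing in the Golgi, lay between −0.75 and −0.41 (adjusted p = 0.111), and IMPAD1, a Golgi phosphatase now named BPNT2, between −0.93 and −0.29 (adjusted p = 0.0975), with 2 other IMPAD1 probes at −0.18 and −0.37. TGS1, which hypermethylates the cap of small nuclear RNAs, averaged −0.59, SIPA1L2 −0.55 and the chemokine gene CXCL5 −0.64, with adjusted p of 0.151 to 0.165. HMGN4, a nucleosome-binding protein gene with a mean of −0.67 (adjusted p = 0.161), was above the detection limit in the INS0.1 channel on 2 of the 4 arrays.

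Of the 12 called probes with no gene symbol, 11 rose, and EMBV3_07197 and EMBV3_00162 rose most, both at a mean of 1.24. The 1 probe that fell was EMBV3_22006, with log2 ratios of −0.11, −0.14, −2.27 and −1.78 on replicates 1 to 4. The fall lay on the 2 arrays with insulin in Cy3, and the probe had a dye effect of 0.79 (adjusted p = 0.000745). It was not above the detection limit in the INS0.1 channel on any of the 4 arrays and was above it in the control channel on 2. Its measured means were 6.72 log2 units in INS0.1 embryos and 7.79 in control embryos, with a fitted ratio of −1.07 (limma adjusted p = 0.0134). With the INS0.1 level held at the detection limit, the control mean was 1.17-fold brighter, and that value was not tested.

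With INS0.1 replicate 1 left out, 130 named genes rose (1.11% of genes tested) and 4 fell (0.0341%), and the 17 genes were all among those that rose. By probe, 210 rose (0.714%) and 8 fell (0.0272%), and 31 probes were called in both fits, which is 96.9% of the calls over 4 arrays and 14.2% of those without replicate 1. The rises among the 130 genes ran from 0.75 to 1.86 with a median of 1.02. On the replicate 1 array, which took no part in choosing them, the same genes ran from −0.62 to 0.79 with a median of 0.01. They were above 0 on replicate 1 in 66 genes and at or below 0 in 64. Ratios on replicates 2 to 4 were used for the choice and are favoured by it. KRI1, OLR1 and NDP among the 130 were not above the detection limit in the control channel on any INS0.1 array, so their control level is a bound only. They were above it in the INS0.1 channel on 1, 2 and 2 arrays. With the control level held at the limit, INS0.1 over control was 0.87-fold for KRI1, 0.76-fold for OLR1 and 1.06-fold for NDP. On that bound no rise is shown for KRI1 or OLR1.

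ATP5D, a subunit of the mitochondrial ATP synthase now named ATP5F1D, had the largest rise of the genes positive on replicates 2 to 4. It had 2.24, 1.10 and 1.69 on replicates 2 to 4 and −0.45 on replicate 1 (fitted without replicate 1 at 1.80, adjusted p = 0.000324, against 0.130 over 4 arrays). SEC13, a coat protein of vesicles leaving the endoplasmic reticulum, had 1.43, 1.84 and 1.29 and, on replicate 1, −0.35 (adjusted p = 0.000809, against 0.0898 over 4 arrays). PRPF6, a scaffold of the spliceosome, had 1.72, 1.09 and 1.29 and, on replicate 1, −0.41 (adjusted p = 0.000324, against 0.151). In the probes that represent these genes, replicates 2 to 4 and replicate 1 lay on opposite sides of 0. The 3 other SEC13 probes gave 0.60, −0.32 and 0.43 without replicate 1 and none passed, and the brightest of them had 0.13 on replicate 1.

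MAP2K2, the MEK kinase that activates ERK downstream of RAF, had 1.34, 1.80 and 1.25 on replicates 2 to 4 and −0.26 on replicate 1 (adjusted p = 0.000447, against 0.0549 over 4 arrays). The nucleolar protein gene NOL12 had 1.91, 1.07 and 1.35 with −0.32 on replicate 1 (adjusted p = 0.000924), while its 2 dimmer probes gave 0.32 and 0.22 and did not pass. The lysosomal mannosidase gene MAN2B1 had 1.01, 1.11 and 1.73 with −0.28 on replicate 1 (adjusted p = 0.00291). RALY, an RNA-binding protein gene, was the exception among these, by its brightest probe, in having a ratio above 0 on replicate 1. That probe had 0.12 on replicate 1 and 1.81, 0.98 and 1.27 on the others (adjusted p = 0.00146, against 0.0501 over 4 arrays). A dimmer RALY probe had −0.07 on replicate 1 and also passed without it (1.30, adjusted p = 0.00233).

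The 4 named genes that fell without replicate 1 were CD38, DYNLT3, LOC616942 and MUDENG. CD38, an enzyme that consumes NAD, had −0.64, −1.49 and −1.19 on replicates 2 to 4 and 0.26 on replicate 1 (adjusted p = 0.0113), and its 2 other probes gave −0.44 and −0.06 without replicate 1 and did not pass. LOC616942, with no role assigned here, had −0.49, −1.13 and −1.29 and, on replicate 1, 1.13 (adjusted p = 0.0297). MUDENG, now named AP5M1 and a subunit of an endosomal adaptor complex, had −0.36, −1.01 and −1.09 and, on replicate 1, 0.21 (adjusted p = 0.0470). DYNLT3 (adjusted p = 0.00806) was the 1 gene of these 4 with replicate 1 on the same side of 0, and its dimmer probe gave 0.03 without replicate 1. CXCL5 and RGS2 came next and did not pass (adjusted p = 0.0590 and 0.0609), and RGS2 was above the detection limit in the INS0.1 channel on 2 arrays.

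Replicate 1 was then read against replicates 2 to 4 as a description, since 1 array against 3 allows no test of the array. For each INS0.1 replicate in turn, the 200 probes with the strongest rise at INS0.1 were chosen on the 6 arrays of the other replicate numbers at both doses and read on the array left out. Their median ratio was −0.05 on replicate 1, and 46.5% of them were above 0. It was 0.39 on replicate 2 (75.5% above 0), 0.69 on replicate 3 (86.5%) and 0.57 on replicate 4 (89.0%). The probes that rose elsewhere were thus centred near 0 on replicate 1 and raised on each of the other arrays. With the dye effect of those 6 arrays subtracted, the medians were −0.09, 0.55, 0.47 and 0.24 on replicates 1 to 4. At a normexp offset of 16 the median of replicate 2 after that subtraction was 0.14, with 56.5% of probes above 0, so the distance between replicates 1 and 2 depends on the background correction.

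The 200 probes with the strongest fall elsewhere did not set replicate 1 apart in that way. Their medians were 0.03 on replicate 1, 0.07 on replicate 2, −0.09 on replicate 3 and −0.15 on replicate 4, and with the dye effect subtracted they were 0.09, 0.08, 0.12 and 0.11. Probes that fell elsewhere thus had medians near 0 on every INS0.1 array.

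**Figure D2:**
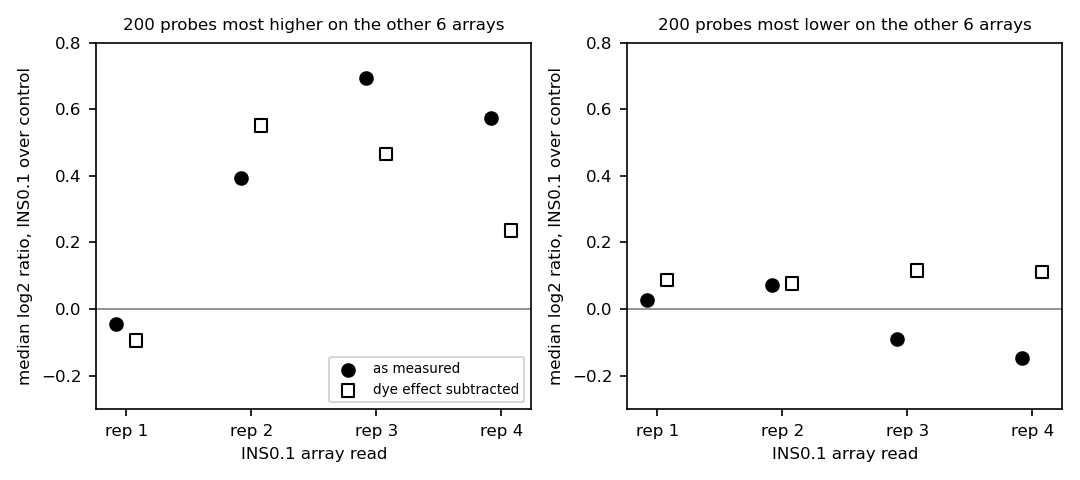
Median log2 ratio of INS0.1 over control on each INS0.1 array for the 200 probes with the strongest rise (left) and the 200 with the strongest fall (right) on the 6 arrays of other replicate numbers. Filled circles are ratios as measured and open squares have the dye effect of those 6 arrays subtracted. On the left the circles lie at −0.05 on replicate 1 and at 0.39 to 0.69 on replicates 2 to 4, and on the right all lie between −0.15 and 0.12.

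The level in each channel was also read. Over the 210 probes called higher without replicate 1, the median level on replicate 1 was 9.67 log2 intensity units in INS0.1 embryos and 9.67 in control embryos. On replicate 2 it was 10.8 in INS0.1 embryos and 9.73 in control embryos, on replicate 3 it was 10.9 in INS0.1 embryos and 9.75 in control embryos, and on replicate 4 it was 10.3 in INS0.1 embryos and 9.21 in control embryos. Since the probes were chosen for high ratios on replicates 2 to 4, the channels of those arrays are a description and do not locate the difference of replicate 1. These levels are of 1 channel each after loess and quantile adjustment of the mean intensities, and dye bias can enter them. The 210 probes were bright, with a mean intensity of 9.91 as a median against 8.02 over all kept probes. On the 4 INS10 arrays, which were used in that fit for the dye effect, their median ratios were 0.50 to 0.85, with 0.85 on the INS10 array of the same number.

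**Figure D3:**
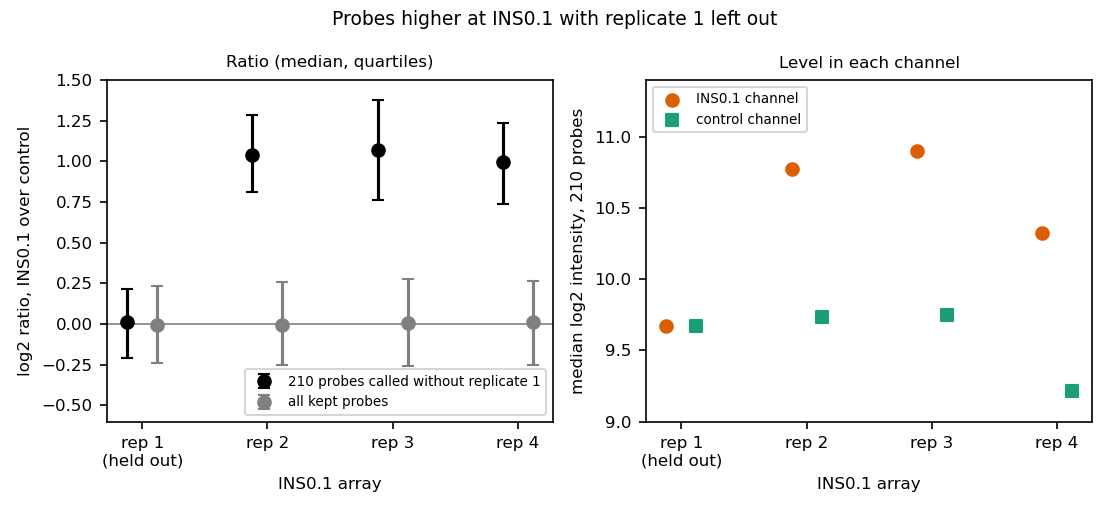
The 210 probes called higher at INS0.1 without replicate 1. The left panel gives their log2 ratio of INS0.1 over control on each array (black, median with quartiles) beside all kept probes (grey), and the right panel the median log2 intensity in the INS0.1 channel and the control channel. The ratio is 0.01 on replicate 1 and 0.995 to 1.07 on replicates 2 to 4, and on replicate 1 both channels stand at 9.67.

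Across all 29398 kept probes the ratios of replicate 1 were not flat. Their SD was 0.368 on replicate 1 and 0.407 to 0.429 on replicates 2 to 4, and 244 probes were above a ratio of 1 on replicate 1 against 359 to 440 on the others. Across these probes Pearson's r was 0.193 between replicates 1 and 2, which share the dye orientation, and 0.416 between replicates 3 and 4, which share the other. It was −0.227 and −0.230 between replicate 1 and replicates 3 and 4, and −0.0787 and −0.116 between replicate 2 and replicates 3 and 4. The signs follow the dye orientation, and the probes of an array are not independent. Raw intensity and detection of replicate 1 (238 in Cy5, 303 in Cy3, 43.7% and 52.8% of probes detected) lay within or just below the ranges of the other 3 arrays, and 25 of its probe spots were marked as ignored against 17 to 35.

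Single genes on which replicate 1 lay furthest from the other arrays were chosen for that distance, and their values are a description. Of 3421 genes that were detected in every channel, had replicates 2 to 4 within 1 log2 unit and had replicate 1 outside their range, replicate 1 was above in 1875 and below in 1546. The 8 furthest above included SLC16A1, the monocarboxylate transporter that carries lactate and pyruvate, at 1.28 on replicate 1 and −0.32, −0.41 and −0.19 on the others. A second SLC16A1 probe gave 0.90 on replicate 1 and −0.12 to −0.04 on the others, and another gave −0.17 on replicate 1, so the probes disagree. HSD17B7, which acts in cholesterol synthesis, had 1.12 on replicate 1 and −0.62, −0.02 and −0.80 on replicates 2 to 4.

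PTGS2, the inducible enzyme of prostaglandin synthesis, had 0.92 on replicate 1 and −0.32, −0.59 and −0.66 on replicates 2 to 4. Its 2 other probes gave 0.38 and 0.23 on replicate 1, on which each PTGS2 probe was highest. RAD54B, a recombination repair factor, had 0.85 on replicate 1 and −0.82 to 0.02 on the others, RNF13 0.93 and −0.76 to −0.01, EFR3A 1.03 and −0.79 to −0.16, and LOC616942 and CD38 were as given above. For SLC16A1 on replicate 1 the level was 15.2 log2 units in INS0.1 embryos and 13.95 in control embryos. On replicates 2 to 4 it was 14.1 to 14.6 in INS0.1 embryos and 14.4 to 14.8 in control embryos, so both channels of replicate 1 lay outside the range of the others.

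The 8 genes furthest below on replicate 1 were all among the 130 that rose without it. EDF1, a transcriptional coactivator gene, had −0.62 on replicate 1 and 1.41, 1.13 and 1.29 on replicates 2 to 4. NDUFB7, a subunit of respiratory complex I, had −0.42 and 0.96, 1.85 and 1.51, and NF2, which encodes the Hippo pathway regulator merlin, had −0.41 and 0.49, 1.35 and 1.22. AGTRAP (−0.46 on replicate 1), GAS8 (−0.42), SEC13, PRPF6 and NOL12 completed them. For EDF1 on replicate 1 the level was 9.13 in INS0.1 embryos and 9.75 in control embryos, and on replicate 2 it was 11.1 in INS0.1 embryos and 9.69 in control embryos. In each of the 8 genes the INS0.1 level of replicate 1 was the lowest of the 4 arrays, which a choice by low ratio on replicate 1 favours. Control levels did not behave alike. That of EDF1 was 8.998 on replicate 4, and in SEC13, NDUFB7 and NOL12 the control level of replicate 1 was the highest of the 4. Of the 3 other EDF1 probes, 2 also passed without replicate 1 (1.06 and 0.91) and 1 did not (0.59).

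**Figure D4:**
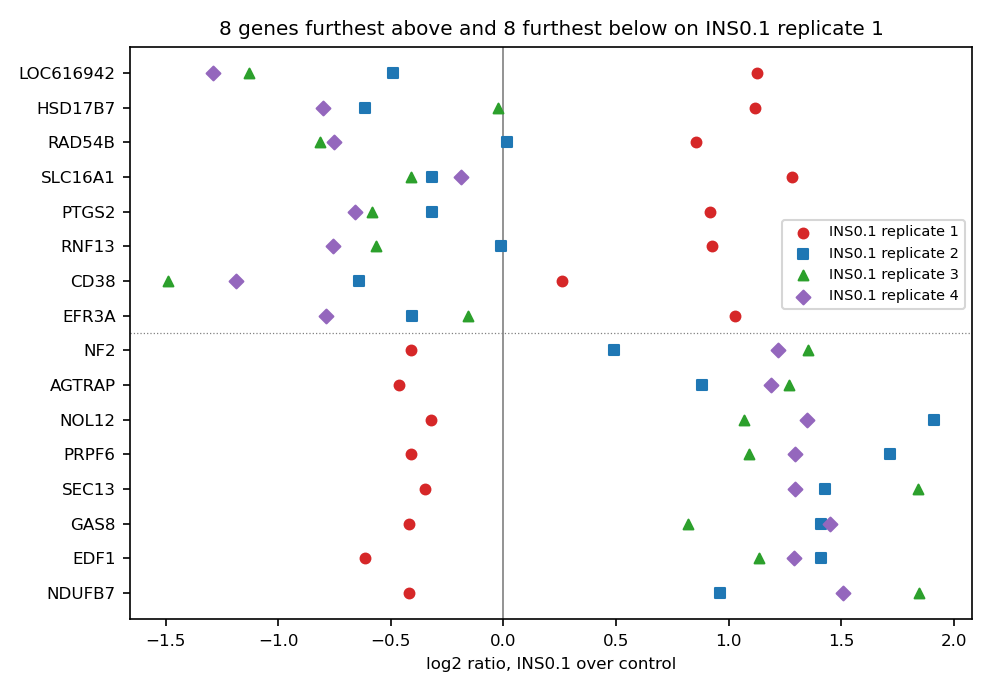
Log2 ratio of INS0.1 over control on the 4 INS0.1 arrays for the 8 genes in which replicate 1 lay furthest above the median of replicates 2 to 4 (above the dotted line) and the 8 in which it lay furthest below. The genes were chosen for this distance. Replicate 1 (red circles) lies between 0.26 and 1.28 in the upper genes and between −0.62 and −0.32 in the lower genes.

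Gene groups were then read as lists, beside all 11742 named genes, of which 0.145% rose over 4 arrays and 1.11% without replicate 1, with a median ratio of 0.00 over 4 arrays. In the cytoskeleton and nuclear lamina list, 3 of 42 measured genes rose over 4 arrays (LMNA, ARPC1B, TUBB3) and 6 rose without replicate 1, among them the beta tubulin TUBB2C, now TUBB4B, at 1.12 (adjusted p = 0.0224). The list's median was 0.05, so most of its members did not move with those genes. In the lysosome and proton pump list 2 of 33 rose over 4 arrays and 3 without replicate 1. The gene added was ACP5, an acid phosphatase named after its value was seen, at 0.85 (adjusted p = 0.0424). The list's median was 0.03, and ATP6AP2 in it had a negative ratio on each array.

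In the oxidative phosphorylation list, 0 of 74 genes rose over 4 arrays and 4 rose without replicate 1, with 5 higher and 2 lower at an unadjusted p under 0.05 over 4 arrays in limma. The 4 were ATP5D and the complex I subunits NDUFB7 (1.32, adjusted p = 0.00410), NDUFS8 (1.11, adjusted p = 0.00404) and NDUFA10 (1.05, adjusted p = 0.0129). Replicate 1 was the lowest array in 30 of the 74 genes, and 28 of the 74 were above 0 on it, against 48 on replicate 2, 34 on replicate 3 and 40 on replicate 4. Over all named genes replicate 1 was the lowest array in 24.8% and the highest in 25.9%. The spliceosome and RNA binding list had 1 of 44 genes rise over 4 arrays and 3 without replicate 1 (ARL6IP4, RALY, PRPF6), at a list median of −0.01.

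The cholesterol synthesis list ran otherwise. DHCR7 was the 1 of 21 genes that rose over 4 arrays, and MVD, the mevalonate pathway decarboxylase, joined it without replicate 1 at 1.07 (adjusted p = 0.0279), with −0.27 on replicate 1. The list's median was 0.30 on replicate 1, −0.11 on replicate 2, 0.23 on replicate 3 and 0.14 on replicate 4, and replicate 1 was the highest array in 10 of the 21. On replicate 1, 17 of the 21 genes were above 0, against 7 on replicate 2, 15 on replicate 3 and 13 on replicate 4. HMGCS1, which makes the substrate of the rate-limiting step, had 0.54 on replicate 1, 0.15 on replicate 2, 0.23 on replicate 3 and 0.42 on replicate 4 and did not pass (adjusted p = 0.635), and its 3 other probes gave −0.14 to 0.25. In the fatty acid synthesis and lipid storage list FADS2 was the 1 of 29 that rose, with and without replicate 1. FADS1, the partner desaturase, had 0.28, 0.86, 0.18 and 0.39 and did not pass (adjusted p = 0.424).

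In the insulin and IGF signalling list 0 of 32 genes rose over 4 arrays, with 5 higher and 2 lower at an unadjusted p under 0.05, and MAP2K2 was the 1 that rose without replicate 1. INSR, the insulin receptor, had 0.01, 0.15, −0.01 and −0.44 (mean −0.07, adjusted p = 0.956) and was detected in the INS0.1 channel on 3 arrays. IGF2R, which removes IGF2 and carries enzymes to lysosomes, had 0.22, 0.36, 1.34 and 0.64 (mean 0.64, SE 0.15, adjusted p = 0.112), above 0 on 4 of 4 arrays. AKT2 had 0.04, 0.71, 0.86 and 0.43 (adjusted p = 0.414). IGF1R and IRS1 were on the array but too dim for the filter. In the glucose transport and glycolysis list 0 of 22 genes rose, with 2 at an unadjusted p under 0.05, and the glucose transporter gene SLC2A1 had 0.04, −0.18, −0.23 and −0.17 (mean −0.13, adjusted p = 0.911).

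Of the blastocyst lineage lists, 0 of 25 trophectoderm, 0 of 18 inner cell mass and 0 of 17 hypoblast genes changed over 4 arrays, with 4 trophectoderm, 3 inner cell mass and 3 hypoblast genes at an unadjusted p under 0.05. TEAD4, a transcription factor that specifies trophectoderm in mouse embryos, rose without replicate 1 at 0.79 (adjusted p = 0.0336) and had 0.12 on replicate 1. POU5F1, a pluripotency factor, had −0.23, 0.06, 0.35 and 0.41 on replicates 1 to 4 (mean 0.15, adjusted p = 0.908), NANOG had 0.45, −0.22, 1.08 and 0.08 (mean 0.35, adjusted p = 0.728), and CDX2, a trophectoderm factor, had 0.20, −0.07, 0.27 and 0.21 (mean 0.15, adjusted p = 0.896). Their ratios lay on both sides of 0. CDX2 was above the detection limit in the INS0.1 channel on 3 arrays and in the control channel on 2. IFNT, the interferon by which the trophectoderm signals pregnancy in ruminants, had −0.34, −1.64, 0.27 and 0.17 on replicates 1 to 4 (adjusted p = 0.638).

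In other lists the genes below rose without replicate 1 and did not pass over 4 arrays. They were the proteasome subunit genes PSMD4 (1.17, adjusted p = 0.00410) and PSMC1 (1.28, adjusted p = 0.0351) of 30, MCM2 of the replicative helicase (1.16, adjusted p = 0.00410) of 42 cell cycle genes, whose 2 other probes gave −0.39 and −0.05 and did not pass, and KEAP1, which holds NRF2 in check (1.004, adjusted p = 0.00745), of 27 antioxidant genes. ACAA1, the peroxisomal thiolase (0.96, adjusted p = 0.0126), was the 1 of 20 fatty acid oxidation genes and CHD4, a chromatin remodeller (0.98, adjusted p = 0.0184), the 1 of 28 epigenetic and imprinted genes. Of 62 cytosolic ribosomal protein genes RPL13 rose without replicate 1 (0.84, adjusted p = 0.0370), and 2 dimmer RPL13 probes passed over 4 arrays at 1.06 and 1.002. In that list 50 of the 62 genes had a ratio above 0 over 4 arrays, against 49.5% of all named genes. The list's medians were 0.15, 0.19, 0.03 and −0.01 on replicates 1 to 4. Dimmer probes of NDUFS8 (0.65), NDUFA10 (0.50 and 0.23), PSMD4 (0.23) and TEAD4 (0.27) did not pass without replicate 1. A call in 1 fit and not in the other is no test of a difference between the fits.

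**Figure D5:**
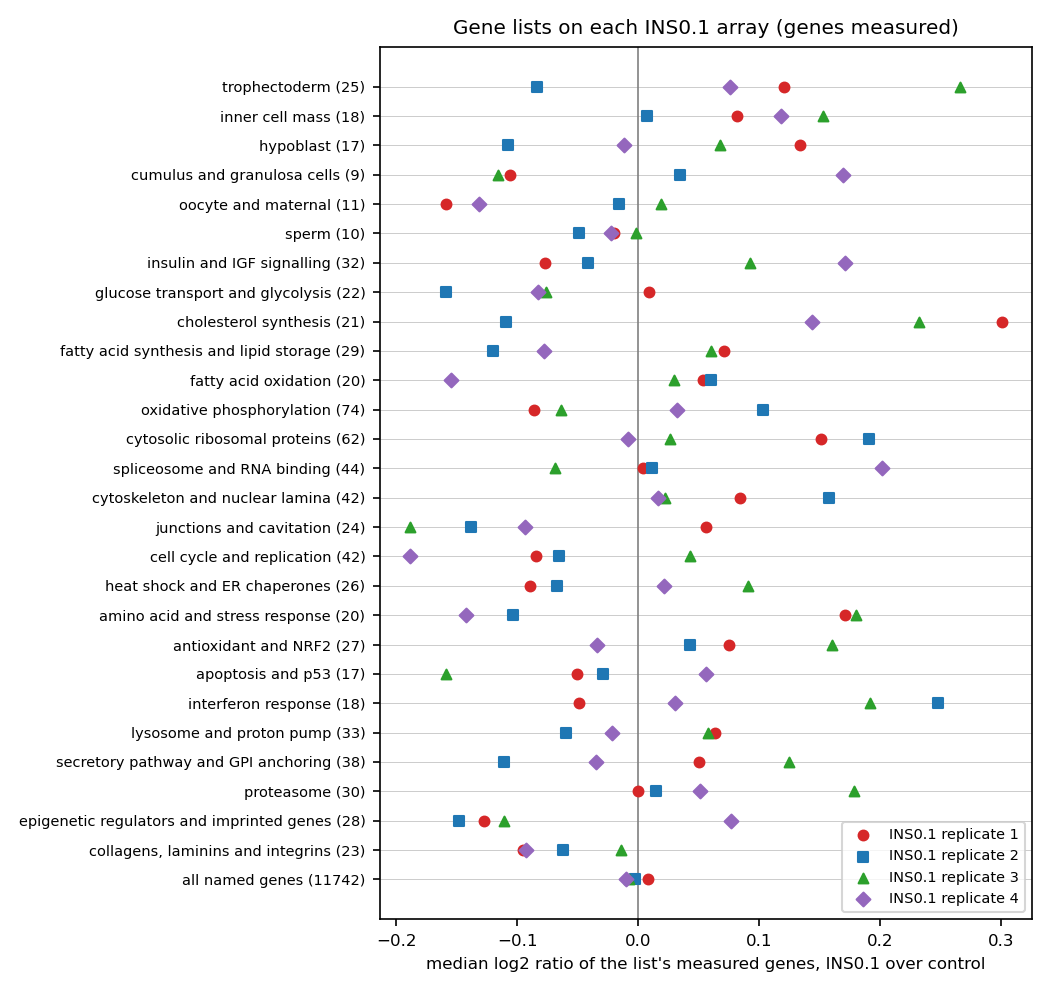
Median log2 ratio of INS0.1 over control of the measured genes of each list on the 4 INS0.1 arrays, with the number of genes in brackets and all 11742 named genes in the bottom row. The medians of cholesterol synthesis run from −0.11 on replicate 2 to 0.30 on replicate 1, and those of all named genes lie within 0.01 of 0.

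Markers of other cell types that an embryo pool can hold were mixed in level. Of 9 measured cumulus and granulosa cell markers 0 passed in either fit, with 1 at an unadjusted p under 0.05 in limma. The summed level of those markers was 12.4 to 13.9 log2 units in the INS0.1 channels and 12.6 to 13.2 in the control channels, and 3 of the 9 were detected in every INS0.1 channel. The steroid synthesis genes CYP11A1, HSD3B1 and STAR were bright, at mean intensities of 11.7, 11.1 and 10.0 log2 units. Which cells of the pool this RNA came from was not tested. PTX3 and GREM1, which cumulus cells express around ovulation, were not above the detection limit in any channel of the 4 INS0.1 arrays. On replicate 1 the summed level was 12.4 in INS0.1 embryos and 12.6 in control embryos. Of 11 oocyte and maternal markers and 10 sperm markers 0 passed in either fit, with 0 oocyte and 2 sperm markers at an unadjusted p under 0.05. DPPA3, a maternal gene that is also expressed in pluripotent cells, had a mean intensity of 13.0, and PRM1, a sperm protamine gene, 8.88, and both were detected in every channel. The oocyte growth factor gene BMP15 and the sperm tail gene ODF1 were not above the detection limit on any INS0.1 array. The part of other cells in the rises was not tested.

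Set against the high dose, 0 probes differed between INS0.1 and INS10 at a limma adjusted p under 0.05 (0% of 29398). In that fit, which had no replicate block, 850 had an unadjusted p under 0.05 and the median SE of the difference was 0.23. With a dye effect for each slide, 1211 probes were under that unadjusted threshold. Adding the random replicate block gave 1980, and the fixed replicate block 2049. Leaving INS0.1 replicate 1 out of the fit with no block gave 1274. None of these fits called a probe. Both doses were fitted against controls that may be shared, so their ratios are given side by side. For the 17 genes that rose at INS0.1 the INS10 log2 ratios ran from 0.48 to 1.44, with LMNA at 1.17 for INS0.1 and 1.44 for INS10, and HS1BP3 at 0.88 for INS0.1 and 0.48 for INS10. For DYNLT3 they were −0.80 for INS0.1 and −0.24 for INS10. The 3 genes in each direction with the smallest unadjusted p for the difference were PRR12 (0.52 for INS0.1 and −0.36 for INS10), LOC508858 (0.32 for INS0.1 and −0.47 for INS10), FADS1 (0.43 for INS0.1 and −0.36 for INS10), TPI1 (−0.27 for INS0.1 and 0.69 for INS10), NGFR (−0.31 for INS0.1 and 0.56 for INS10) and CXCL5 (−0.64 for INS0.1 and 0.18 for INS10). None of them passed (adjusted p = 0.99969 for each). A p above the threshold does not show that the doses act alike.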

How the data were processed

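Whole-blastocyst RNA was extracted, linearly amplified and labelled with Cy3 and Cy5 per the labels' protocols, and hybridised with 1 replicate per 2-colour array. The deposited scanner files hold median spot intensity and local background intensity on a linear scale for each dye, per the file headers. The authors also deposited log2 ratios whose scaling is not given in the sources used here, with column medians from −0.0215 to 0.00997. These correlated at r of 0.991 to 0.998 with ratios made for that check by background subtraction and loess. They were not correlated with the normexp ratios used in this report.

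Background was corrected with normexp (offset 50) on 45220 spots, and each array was normalised by loess with 1426 control spots and spots marked as ignored at weight 0. No step was applied between arrays. A probe was kept if its corrected intensity exceeded the mean plus 2 SD of 153 negative-control spots in at least 4 of 16 channel readings. Ratios were turned to insulin over control by the dye labels. limma 3.58.1 (R 4.3.3) fitted an effect for each dose and a shared dye effect over 8 arrays, with 5 residual degrees of freedom and Benjamini-Hochberg adjustment over 29398 probes. The dye effect passed in 1529 probes. Levels per channel used quantile adjustment of mean intensity between arrays. The number of arrays limits the precision. The models were tested on simulated data.

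Symbols came from the platform annotation, which gave 21790 probes 1 symbol and 22004 none. Of 15229 symbols, 14114 were current, 982 were synonyms and 133 were unmatched in the RefSeq table (ARS-UCD2.0). A gene was read by its probe of highest mean intensity. Named genes were up to 20 per direction that passed over 4 arrays with 1 sign (filled to 8 by p), up to 12 that passed without replicate 1 (filled to 6), the 8 furthest on each side of replicate 1, up to 4 of each of 27 lists by p, a short list of insulin and lineage genes, and 3 per direction between doses. TUBB3, which had a negative ratio on 1 array, entered through the fit without replicate 1. The members and lists were chosen with earlier results of these data known.

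Replicate numbers were treated as pairing the doses only in the block fits. The calls and the contrast between doses came from fits without a replicate block, except where a block is named. Deviations of arrays with the same number correlated between doses (r of 0.261 and 0.224). The alternatives changed background correction, normalisation, filter, dye term, arrays fitted, variance prior, replicate block and replicates left out. The block fits also had a dye effect for each slide. That dye effect alone and the fixed replicate block were added after seeing the data.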

Additional observations from a re-analysis of the deposited data

Results flagged for a closer look

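Among 101 genes and lists compared over the 4 INS0.1 arrays, 6 had 1 array far from the other 3 relative to their whole range. Chance sets off this flag in about 1 in 20 groups. TGS1 had a log2 ratio of −1.07 on replicate 3 and −0.48 to −0.37 on the others. SLC16A1 had 1.28 on replicate 1 and −0.41 to −0.19 on the others, and EDF1 had −0.617 on replicate 1 and 1.13 to 1.41 on the others. Both genes were chosen for their distance on replicate 1. MCM2 had −0.146 on replicate 1 and 1.04 to 1.17 on the others. A second MCM2 probe ran the other way, with 0.65 on replicate 1 and −0.72 to −0.12 on the others. The median of the fatty acid oxidation list was −0.154 on replicate 4 and 0.03 to 0.06 on the others. The median of the epigenetic and imprinted list was 0.0770 on replicate 4 and −0.15 to −0.11 on the others.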

How the results depend on the processing

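Of the 32 probes called at INS0.1 over 4 arrays, the count was 9 without background correction, 2 at a normexp offset of 16 (1 higher and 1 lower), 8 with median centring, 58 over probes detected in all 16 readings, and 0 with scale normalisation, with no dye term or with the INS0.1 arrays alone (1819, 1540 and 2505 at an unadjusted p under 0.05). With a dye effect for each slide it was 41 with no block, 64 with the random replicate block and 551 with the fixed replicate block, and leaving out 1 array gave 0 to 218. Without replicate 1, the 218 calls became 102 at offset 16, 143 with scale normalisation, 95 with no dye term and 533 with the fixed replicate block (slides again with their own dye effects), and leaving out 1 further array gave 76 to 265 (103 when INS0.1 replicate 2 was dropped too, 76 for replicate 3, 145 for replicate 4 and 123 for INS10 replicate 2). The authors' deposited log2 ratios gave 37 and 251 calls. The 17 genes became 0 when all probes of a gene were averaged (1006 genes at an unadjusted p under 0.05). INS0.1 against INS10 gave 0 calls in every fit run. The median on replicate 1 of the 200 probes higher elsewhere, with the dye effect subtracted, stayed between −0.208 and −0.0748. That of the 200 lower elsewhere was 0.0879 and moved to 0.117 without background correction, 0.110 with median centring, 0.145 with scale normalisation, 0.1504 with the authors' ratios and 0.133 over probes detected in all readings. The cause of these changes was not tested. The direction of a called value changed in none of these fits. The labels do not say whether control samples were shared, and 2 arrays per dye orientation set the precision.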

Other observations

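Of the interferon response genes, 3 had an unadjusted p under 0.05, all higher at INS0.1. ISG12(A), an interferon-induced gene, had log2 ratios of 0.12, 2.59, 2.29 and 0.28 on replicates 1 to 4 (mean 1.32, SE 0.34, limma adjusted p = 0.149), high on replicates 2 and 3 and near 0 on replicates 1 and 4. MX1, an antiviral GTPase gene, had 0.87, 1.25, 0.41 and 0.26 (mean 0.69, SE 0.15, adjusted p = 0.0805), above 0 on 4 of 4 arrays, and was above the detection limit in the control channel on 1 array. Neither passed, and 0 of 18 genes of the list did in either fit. Outside the calls of that list, probes of IFIT5 and IFI27L2, genes named for interferon, passed without replicate 1. IFIT5 was at 1.29 (limma adjusted p = 0.0193) and IFI27L2 at 0.98 (adjusted p = 0.0467). On replicate 1 they had 0.03 and −0.26, and over 4 arrays they did not pass (adjusted p = 0.123 and 0.254). APOA1, an apolipoprotein gene of the hypoblast list, had 0.35, −0.52, 1.90 and 0.91 (adjusted p = 0.180).

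The control channels of arrays with the same dye orientation were compared across doses over the kept probes. Pairs of the same replicate number had r of 0.961, 0.972, 0.967 and 0.964, and pairs of different numbers had r of 0.946 to 0.959. Whether the same control samples were used at both doses was not tested.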
